A study of Mus musculus with 2 samples.

Results

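The genes described here encode the MHC class I antigen presentation pathway: the class I chains B2m, H2-K1 and H2-D1, the peptide transport and loading proteins Tap1, Tap2 and Tapbp, the immunoproteasome subunits Psmb8, Psmb9 and Psmb10, and the transactivator Nlrc5. They were taken by symbol from the gene names in the files, and where several loci carried 1 symbol their values were added. Of the 10 genes, 8 had a symbol of their own in both libraries, among 23320 symbols found in both. H2-D1 and Tapbp were listed only inside a name shared with neighbouring genes and are described apart from the 8.

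The study addressed what changes in gene expression when the transcription factor KLF9 is over-expressed in mouse primordial germ cells (PGCs), the embryonic precursors of eggs and sperm. PGCs at E13.5 were sorted by strong GFP from male and female embryonic gonads (genital ridges), fathered by C57BL/6J males with the Oct4-deltaPE-GFP transgene on MCH females. They were infected at MOI 5 with a CSII-EF lentivirus carrying the Klf9 coding region (Klf9-OE PGCs) or with a control lentivirus (control PGCs), and cultured for 1 day on gelatin without feeder cells. RNA-seq covered 1 library per condition, so no difference below has a replicate check and no p-value is given. The sample labels describe the medium as containing bFGF, while the study's account of its RNA-seq results describes that culture as lacking it. The study used empty vectors or one carrying mCherry as controls, and which served here is not given in the sources used here. The transgene is driven by the vector's EF promoter in every infected cell.

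MHC class I molecules show short peptides from inside the cell to cytotoxic T cells at the cell surface. Proteasomes cut proteins into peptides, the TAP transporter carries these into the endoplasmic reticulum, and tapasin with other chaperones loads them on a heavy chain paired with beta-2 microglobulin. In most tissues interferon raises these genes together, and germ line cells and early embryos are known for low class I levels.

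NLRC5 acts on class I genes without binding DNA itself, through factors held on a promoter module whose X2 box is bound by CREB and ATF proteins and whose Y box is bound by NF-Y. The stretches that hold both boxes in the 3 class I chain genes are shown because this module is the place where the transactivator described below acts. Each is 60 bases in RefSeq sequence of GRCm38.p6 (mm10), written 5′ to 3′ on the gene's strand, with the X2 box core TGACG and the Y box core ATTGG in capitals.
B2m, chr2:122147594-122147653, plus strand: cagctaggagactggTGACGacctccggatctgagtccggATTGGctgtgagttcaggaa
H2-K1, chr17:34000344-34000403, minus strand: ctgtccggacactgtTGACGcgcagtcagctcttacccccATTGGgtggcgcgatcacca
H2-D1, chr17:35262978-35263037, plus strand: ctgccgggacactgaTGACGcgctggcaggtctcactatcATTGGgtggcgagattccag

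In each stretch the first bases of the 2 cores lie 25 bases apart. The same pair at the same distance, in this order on 1 strand, was present in 31 of 32851 RefSeq promoter windows of 300 bases (250 before to 50 after the gene start), or 0.0944%. Among the 31 was H2-M3, another class I heavy chain gene. This spacing was read from these promoters first and then counted, so it is a description. Counting from the gene start, the X2 core began at -78 in B2m, at -101 in H2-D1, and at -55 or -41 in H2-K1, which has 2 annotated starts.

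Searched alone and on both strands, the X2 core was in 5 of the 8 genes of the pathway that had a promoter window (B2m, H2-D1, H2-K1, Psmb9 and Tap1), against 20.8% of all windows. The Y core ATTGG was in 6, which adds Tapbp, against 37.4% of all windows. Tap1 and Psmb9 lie head to head with starts 226 bases apart, so their windows share 275 bases and are not separate observations. The Psmb8 window began at 34197945, inside the Psmb8 locus of these libraries, which starts at 34197720 on the plus strand. Its matches and missing motifs therefore do not describe the sequence before that start. The ISRE, the element bound by interferon-activated factors, was searched as GAAANNGAA and was in B2m (8.56% of all windows), and its mirrored form GAANNGAAA was in H2-D1 and H2-K1 (7.52% of all windows). The 2 ISRE forms overlap in letters but cannot match exactly the same bases, and none of the 8 genes held both. The GC box GGGCGG was in Psmb9, Tap1 and Tapbp (35.7% of all windows), and CACCC, the core bound by Klf proteins, was in all but Psmb10 of the 8 (57.5% of all windows). These matches are descriptions of the letters in these windows and not binding sites.

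Klf9 itself checked the labels. It was listed at 2.27 RPKM in control PGCs (Cufflinks 95% interval 1.97 to 2.57) and at 80.8 RPKM in Klf9-OE PGCs (77.0 to 84.5), a ratio of 35.6 with a 95% range of 31.0 to 41.0. RPKM scales read numbers by exon length and by the mapped reads of the library, so levels of different genes are compared per length throughout. Each interval covers estimation error within its library and says nothing of the difference between cultures. The files hold no read totals, but the intervals imply 1.21 Klf9-OE reads for each control read. This value came from 11168 genes with at least 50 implied reads in each library. It is the median over those of them that lay near the median of all. Klf9 itself had about 230 implied reads in control and 1825 in Klf9-OE. These numbers do not follow its ratio of 35.6, so interval width and level disagree for Klf9. An even read number was found for 36.1% of the 2177 control genes that had 1 to 9 implied reads (Wilson 95% interval 34.1% to 38.2%), and for 87.6% of 1817 such genes in Klf9-OE (86.0% to 89.0%). Where reads in Klf9-OE came in pairs, its intervals are too narrow, so each range below was also computed with them widened by the square root of 2. Widened or not, the intervals do not cover differences between cultures.

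Germ cell markers, summed over 15 genes, were at 2068 RPKM in control and 1764 RPKM in Klf9-OE PGCs. Intervals lay apart for 14 of them, 12 lower and 2 higher in Klf9-OE. Dazl, an RNA-binding protein of germ cells and the most abundant on the sum of both libraries, was one of the higher ones at 352 and 378 RPKM. Among the lower ones, named after their values were seen, the pluripotency factor Pou5f1 was at 387 and 277 RPKM, Dppa3 at 294 and 179 RPKM and Nanog at 11.7 and 6.30 RPKM. Markers of gonad somatic cells, summed over 17 genes, went from 43.5 to 60.9 RPKM, with 8 genes apart and higher and 1 apart and lower. Col1a1, a collagen of mesenchyme, was at 9.09 and 12.53 RPKM, and Star, of steroid synthesis, was listed at 0 in control and at 2.40 RPKM in Klf9-OE. Endothelial markers went from 33.7 to 44.6 RPKM over 12 genes, with 2 genes apart and higher and 2 apart and lower. Pecam1, the most abundant of them, was at 16.8 and 24.2 RPKM and Cdh5 at 1.995 and 5.08 RPKM. Lower were Erg, at 3.05 and 1.33 RPKM, and Tek, at 0.735 and 0.439 RPKM. Kdr, Tie1, Emcn and Sox18 were below 1 RPKM in both libraries. Leukocyte and macrophage markers, cells with high class I levels, were at 13.53 and 13.96 RPKM over 19 genes, with 1 gene apart and higher and 2 apart and lower. Lyz2, at 1.00 RPKM in control, was listed at 0 in Klf9-OE as were Cd52, C1qb and C1qc, whereas Csf1r, a receptor of macrophages, was at 0.307 and 1.18 RPKM. Cd68, the most abundant of them on the sum of both libraries, was at 3.69 and 4.11 RPKM, and Ptprc, which marks leukocytes in general, was near 0 in both libraries, at 0.0584 and 0.0239 RPKM. The globin genes of red blood cells, in joint names, were at 36.6 and 7.30 RPKM for Hba-a1 with Hba-a2 and at 16.4 and 3.997 RPKM for Hbb-b1 with Hbb-bs, in control and Klf9-OE in that order, with intervals apart. The part of these cells in the class I values was not tested, and in bulk RNA fewer cells of a type and less RNA per cell cannot be told apart.

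The levels of the 8 pathway genes in Klf9-OE PGCs were each within 2-fold of control. None of the 8 reached a 2-fold ratio in either direction, whereas of the 18742 genes above 0 in a library, 9.82% passed a 2-fold ratio upward in Klf9-OE and 9.43% passed it downward. All 8 were at 1 RPKM or more in both libraries, and among the 11632 genes at such levels the shares were 1.66% higher and 2.05% lower, so a count of 0 among 8 is near the background. The 95% range of the ratio was inside 0.5 to 2 for 8 of 8 genes, from a lowest bound of 0.559 to a highest bound of 1.52. With widened Klf9-OE intervals the bounds were 0.542 and 1.64, and the ranges remained inside 0.5 to 2 for 8 of 8.

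By direction, 4 genes were higher and 4 lower, or 5 and 3 with the libraries scaled to the same sum. The Cufflinks intervals of the 2 libraries lay apart for 1 gene, Nlrc5, which was lower, and for 0 genes that were higher. Over all genes above 0, intervals lay apart in 11.2% as higher and in 14.4% as lower, and over genes of at least 1 RPKM in both libraries in 13.7% and 20%. The median difference in log2(RPKM + 0.1), Klf9-OE minus control, was -0.005 over the 8 genes, -0.015 over all 18742 and -0.027 over the 11632. The median size of the difference regardless of sign was 0.13, 0.23 and 0.16 in the same order.

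**Figure D1:**
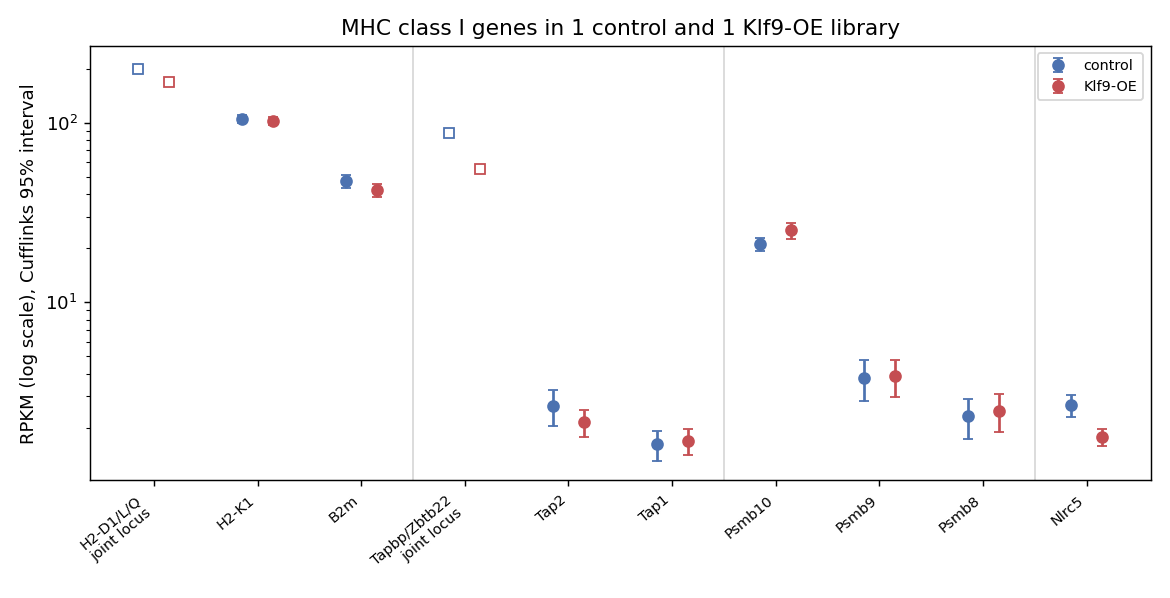
RPKM of the 8 genes with a symbol of their own and of the joint loci that hold H2-D1 and Tapbp, on a log axis, in the control and Klf9-OE libraries, with Cufflinks 95% intervals as bars. Levels in control ran from Tap1 at 1.61 RPKM to the joint locus of H2-D1 at 198 RPKM, and the points of each pair lie within 2-fold of each other.

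H2-K1 and B2m were the most abundant of the 8 genes with a symbol of their own. H2-K1, a classical heavy chain that holds the peptide (chromosome 17, 33996012 to 34000333, mm10), was at 105 RPKM in control PGCs (99.3 to 110.1) and 103 RPKM in Klf9-OE PGCs (97.4 to 107.7). These intervals overlapped, and the ratio of 0.979 had a 95% range of 0.911 to 1.05 that included 1. H2-K1 ranked at percentile 95.8 of all genes above 0 in control and 95.9 in Klf9-OE. B2m, the light chain shared by all class I molecules, was at 47.2 RPKM in control (43.1 to 51.3) and 42.1 RPKM in Klf9-OE (38.8 to 45.4), with overlapping intervals. Its ratio of 0.891 had a range of 0.793 to 1.001. Over both libraries the locus listed for B2m spanned chromosome 2, 122147687 to 122163231, past the annotated gene end at 122153083. Heavy chain RPKM exceeded that of its light chain, with 2.22 times as much H2-K1 as B2m in control and 2.44 times in Klf9-OE.

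H2-D1, the other classical heavy chain of this strain's reference genome, was listed in a locus that joins it with H2-L and H2-Q genes over chromosome 17, 35263094 to 35474563. The joint name held 10 genes in control and 11 in Klf9-OE, which adds H2-Q1, a gene listed at 0 in control. This locus was at 198 RPKM in control (189 to 208) and 168 RPKM in Klf9-OE (160.0 to 176). Its intervals lay apart, and the ratio was 0.845 with a range of 0.791 to 0.903. Relative to H2-K1 the joint locus stood at 1.90 in control and 1.64 in Klf9-OE. Class I heavy chain genes are near-identical and vary between mouse stocks, reads of the MCH alleles were mapped to a C57BL/6J genome, and the effect of either on these values was not tested.

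Tap1 was the least abundant of the 8 genes in both libraries. With Tap2 it forms the pump that moves peptides into the endoplasmic reticulum. Tap1 (chromosome 17, 34187556 to 34197225) was at 1.61 RPKM in control (1.31 to 1.92) and 1.69 RPKM in Klf9-OE (1.41 to 1.97), a ratio of 1.05 with a range of 0.814 to 1.35. Tap2 (chromosome 17, 34204479 to 34216321) was at 2.65 RPKM in control (2.03 to 3.26) and 2.14 RPKM in Klf9-OE (1.78 to 2.49), a ratio of 0.807 with a range of 0.607 to 1.07. For both, the libraries' intervals overlapped and the range included 1. Tap2 exceeded Tap1 1.64 times in control and 1.26 times in Klf9-OE, while H2-K1 exceeded Tap1 64.9 times and 60.7 times. About 112 reads in control and 142 in Klf9-OE stood behind the Tap1 value, and 60.2 and 73.3 behind that of Psmb9.

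Tapbp encodes tapasin, which bridges TAP and the empty class I molecule. Its locus (chromosome 17, 33916176 to 33929290) joined it with Zbtb22, a zinc finger gene whose annotated span lies within that of Tapbp on the same strand, and reads of the 2 genes cannot be told apart in this value. The joint locus was at 88.1 RPKM in control (84.9 to 91.4) and 55.3 RPKM in Klf9-OE (53.1 to 57.4). The intervals lay far apart, and the ratio of 0.627 had a range of 0.594 to 0.662, or 0.587 to 0.670 with widened intervals. By ratio this was the largest difference among the loci that hold a gene of the pathway.

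**Figure D2:**
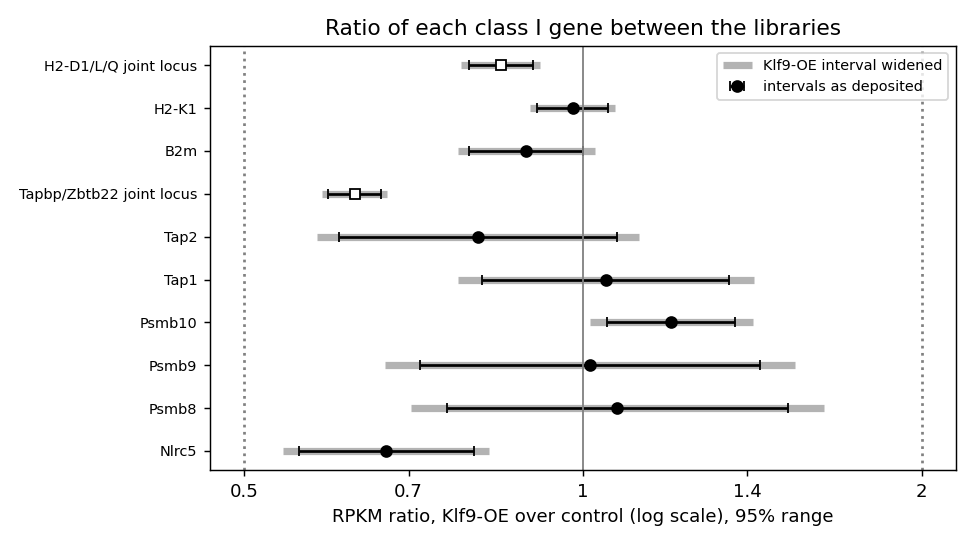
Ratio of Klf9-OE to control RPKM for the 8 genes and the joint loci of H2-D1 and Tapbp on a log axis, with black bars for the 95% range from the Cufflinks intervals, grey bars for the range with the Klf9-OE interval widened, open squares for the joint loci, and lines at 1, 0.5 and 2. The ranges of Nlrc5 and of both joint loci lie below 1, that of Psmb10 lies above 1, and no bar of the 8 genes reaches 0.5 or 2.

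The 3 immunoproteasome subunits are proteases that replace their constitutive partners in the core particle under interferon and change which peptides are cut. Psmb8 (chromosome 17, 34197720 to 34201454) was at 2.32 RPKM in control (1.73 to 2.90) and 2.49 RPKM in Klf9-OE (1.89 to 3.08), a ratio of 1.07 with a range of 0.758 to 1.52. Psmb9 (chromosome 17, 34182099 to 34187330) was at 3.80 RPKM in control (2.82 to 4.78) and 3.86 RPKM in Klf9-OE (2.96 to 4.76), a ratio of 1.01 with a range of 0.717 to 1.44. In both the libraries overlapped over most of their intervals. Psmb10, on chromosome 8 (105935728 to 105938392) and so outside the MHC, was at 21.0 RPKM in control (19.2 to 22.7) and 25.1 RPKM in Klf9-OE (22.5 to 27.7). Its intervals overlapped at their edges, and the ratio of 1.198 had a range of 1.05 to 1.37, or 1.01 to 1.42 with widened intervals. Psmb10 was 9.04 times as abundant as Psmb8 in control PGCs.

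Beside its constitutive partner each immunosubunit was a minor species. Psmb8 made up 0.952% of the summed RPKM of Psmb8 and Psmb5 in control (bounds 0.634% to 1.36%) and 1.07% in Klf9-OE (0.735% to 1.49%). Psmb9 made up 1.44% of its sum with Psmb6 in control (1.02% to 1.90%) and 1.63% in Klf9-OE (1.2% to 2.11%). Psmb10 stood higher, at 7.95% of its sum with Psmb7 in control (7.16% to 8.77%) and 9.67% in Klf9-OE (8.39% to 11.04%). All 3 shares were higher in Klf9-OE, with overlapping bounds. Psmb5 was at 241 and 230 RPKM (in a joint name with Mir686), Psmb6 at 260 and 232 RPKM with its intervals apart, and Psmb7 at 243 and 235 RPKM, in control and Klf9-OE in that order.

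**Figure D3:**
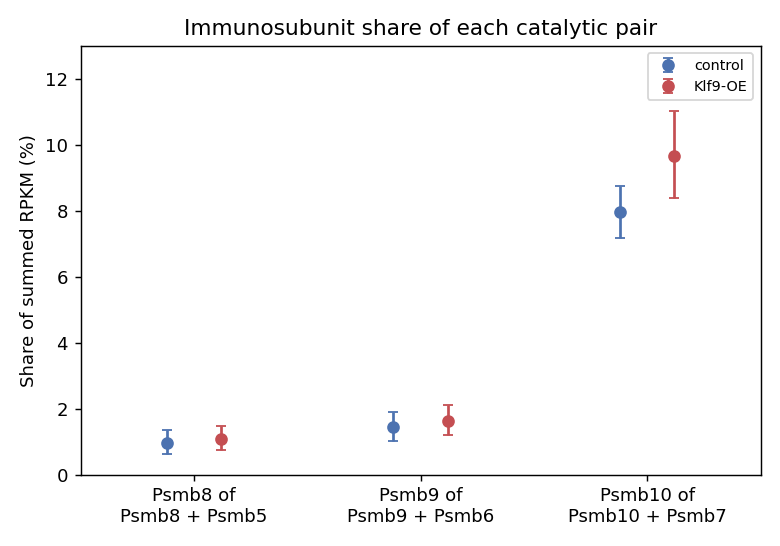
Share of each immunosubunit in the summed RPKM with its constitutive partner, in percent, in the control and Klf9-OE libraries; bars span the lowest and highest share that the Cufflinks intervals of both genes allow. Psmb8 and Psmb9 lie below 2% and Psmb10 lies between 7.95% and 9.67%.

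Nlrc5, the transactivator of class I genes (chromosome 8, 94470042 to 94527272), was at 2.65 RPKM in control PGCs (2.28 to 3.03) and 1.77 RPKM in Klf9-OE PGCs (1.58 to 1.97). It was the 1 gene of the 8 whose intervals lay apart, also with widened Klf9-OE intervals. The ratio was 0.669 with a range of 0.559 to 0.800, and the difference on the log2(RPKM + 0.1) scale was -0.56. Of the other 7 genes, H2-K1, B2m, Tap1, Tap2, Psmb8 and Psmb9 had ratios from 0.807 in Tap2 to 1.07 in Psmb8 with ranges that included 1, and Psmb10 had a ratio of 1.198. The joint loci of H2-D1 and Tapbp had ratios below 1, at 0.845 and 0.627, with intervals apart. With 1 library per condition, whether the Nlrc5 difference exceeds the spread between cultures cannot be judged. The Nlrc5 intervals imply about 200 reads in control and 330 in Klf9-OE, whereas its RPKM was lower in Klf9-OE. The depth of 1.21 Klf9-OE reads per control read does not account for this, so interval width and level disagree for Nlrc5. Implied reads also ran against RPKM for Psmb10, at about 604 and 380, and for Tap2, at 75.1 and 145. Those of B2m and Psmb8 did not follow RPKM and depth within 10% either.

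Other genes of the pathway were taken from lists. Their counts stand beside shares over all genes at 1 RPKM or more in both libraries of 13.7% apart and higher and 20% apart and lower. The other class I heavy chains and the class II genes were in large part below 1 RPKM. For these 2 lists the shares over all genes above 0 apply, at 11.2% apart and higher and 14.4% apart and lower. Of the factors on the class I promoter module, 11 of 11 were above 0, none differed 2-fold, 2 were apart and higher and 1 was apart and lower, with a median log2 difference of 0.11. Atf1, a CREB family factor, was the most abundant at 38.1 RPKM in control and 40.9 RPKM in Klf9-OE. Rfx5, a subunit of the RFX complex on the same module, was at 5.38 RPKM in both and was named after its values were seen.

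Of 19 interferon and NF-kappaB pathway genes above 0, none differed 2-fold, 2 were apart and higher, 5 apart and lower, and the median was 0.04. Irf1, an interferon-induced activator of class I genes and the most abundant of the list on the sum of both libraries, was at 67.7 RPKM in control (64.1 to 71.3) and 52.9 RPKM in Klf9-OE (50.04 to 55.7), with intervals apart. The other genes named from this list were chosen after their values were seen. Stat2 was at 15.5 and 11.3 RPKM and Relb, an NF-kappaB subunit, at 16.0 and 11.7 RPKM, also apart and lower. Ifngr1, a chain of the interferon gamma receptor, was apart in the other direction, at 3.55 and 5.497 RPKM. So was Nfkb1, another NF-kappaB subunit, at 2.635 and 3.467 RPKM. By direction alone, 11 of the 19 genes were higher and 8 lower. Of 10 interferon genes, 8 were listed at 0 in both libraries, and Ifnl2 and Ifnl3, near-identical copies, were listed at 0 in control and 0.0788 RPKM each in Klf9-OE.

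Of 16 genes of peptide trimming and loading, 6 were apart and lower and 0 apart and higher, and the median was -0.06. All 16 were above 1 RPKM in both libraries, where the shares over all genes were 20% lower and 13.7% higher. The most abundant, Hspa5, a chaperone of the endoplasmic reticulum, was at 350.0 RPKM in control and 372 RPKM in Klf9-OE with overlapping intervals. Erap1, which trims peptides to length, and Tapbpl, a relative of tapasin that edits the peptides, were among the lower ones and were named after their values were seen. Erap1 was at 10.2 RPKM in control (9.50 to 10.9) and 8.43 RPKM in Klf9-OE (7.87 to 8.99), and Tapbpl was at 5.81 (4.97 to 6.65) and 4.17 RPKM (3.60 to 4.75). None of the 16 differed 2-fold.

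Of 10 other subunits of the 20S proteasome with a symbol of their own in both libraries, 1 was apart and higher and 2 apart and lower. Their median was 0.004, and Psmb4 was the most abundant at 364 and 354 RPKM. Psma4, also on this list, was in a joint name with Hykk in control only. It was at 208 RPKM in control and 171 RPKM in Klf9-OE, with intervals apart. Among 10 activators and assembly factors, 1 was apart and higher and 2 apart and lower, with a median of -0.06. The lower ones were the subunits of PA28, the activator that aids the cutting of class I peptides. Psme2, the most abundant of the list on the sum of both libraries, was at 190 RPKM in control (181 to 199) and 151 RPKM in Klf9-OE (144 to 158). Psme1, its partner in the ring, was at 137 RPKM (129 to 144) and 107 RPKM (100.5 to 113), a ratio of 0.780 beside 0.794 for Psme2. Pomp, which assembles the core particle, was the higher one, at 132 and 162 RPKM. Psme1 and Pomp were named after their values were seen.

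Of 30 other class I heavy chain genes, 17 had a symbol of their own in both files and 12 were above 0, with 6 higher and 6 lower, a median of -0.05 and 0 genes with intervals apart. The non-classical H2-T23, whose product is seen by receptors of natural killer cells, was at 8.65 RPKM in control (7.52 to 9.78) and 7.04 RPKM in Klf9-OE (6.16 to 7.92). H2-M3, which presents formylated peptides, was at 8.16 and 7.37 RPKM and was named because its promoter holds the box pair above. The 1 gene at least 2-fold higher and the 2 lower were all below 1 RPKM in both libraries.

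**Figure D4:**
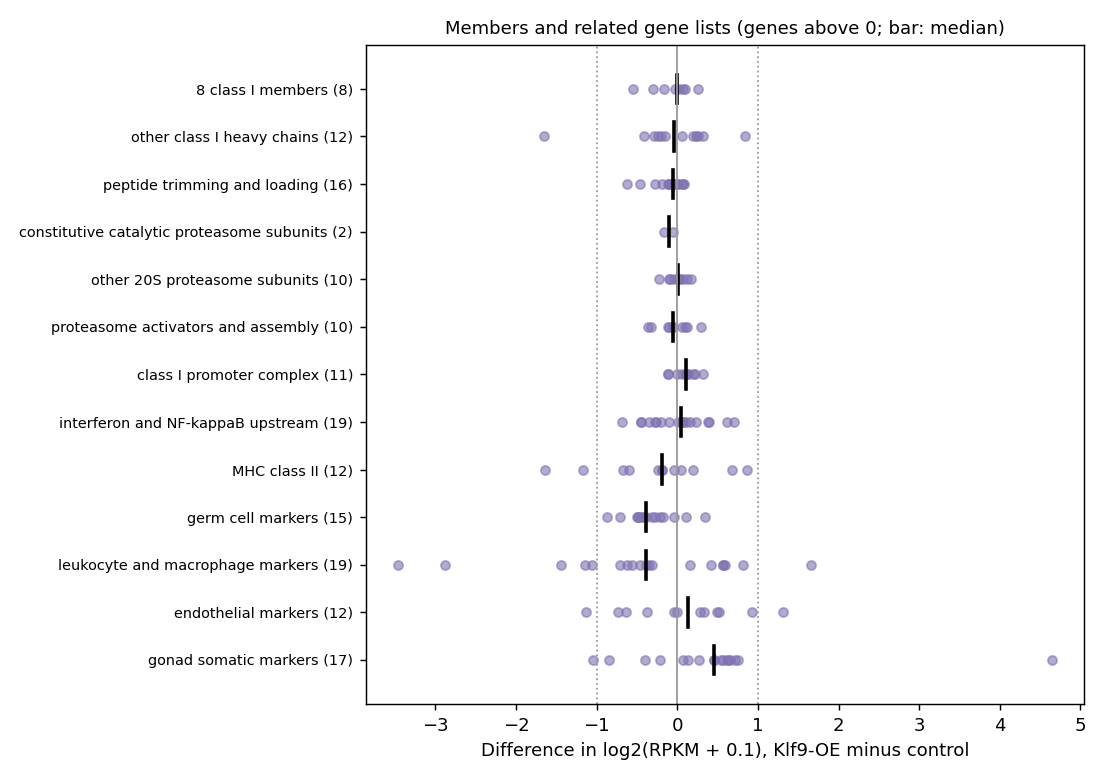
Difference in log2(RPKM + 0.1), Klf9-OE minus control, for each gene above 0 in the 8 class I genes and in lists of pathway genes and cell type markers, interferon genes and erythroid markers left out, with a bar at each list's median and the number of genes in parentheses. The class I genes run from -0.56 to 0.26 around a median of -0.005, and the gonad somatic markers have a median of 0.46 and the germ cell markers of -0.39.

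Of 12 genes of MHC class II presentation above 0, which serves helper T cells, 1 was apart and higher and 1 apart and lower, with a median of -0.20. H2-Ab1, a class II beta chain, was at 15.1 RPKM in control (13.4 to 16.8) and 14.6 RPKM in Klf9-OE (13.3 to 16.0), and Ciita, the class II counterpart of Nlrc5, was near 0 in both libraries.

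On chromosome 17 the genes from the start of H2-K1 to the end of the H2-D1 locus span 1479 kb and numbered 78 above 0, 5 of them in the pathway (H2-K1, Psmb9, Tap1, Psmb8 and Tap2). Of the 73 others, 12 passed a 2-fold ratio upward and 7 downward, beside 9.82% and 9.43% of all genes above 0, and their median log2 difference was -0.08. Restricted to the 45 others at 1 RPKM or more in both libraries, 4 passed it upward and 2 downward, intervals lay apart for 4 as higher and 14 as lower, and the median was -0.13. Over all genes at such levels the shares were 1.66% and 2.05% at 2-fold, and 13.7% and 20% with intervals apart. None of the 5 pathway genes in this span had intervals apart.

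**Figure D5:**
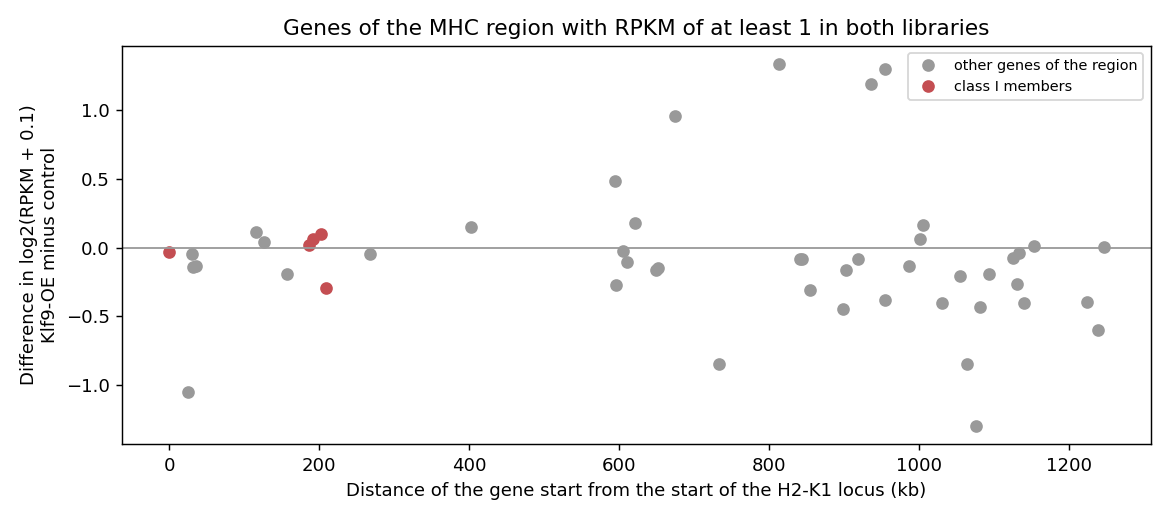
Difference in log2(RPKM + 0.1), Klf9-OE minus control, for genes of the MHC region against distance in kb from the start of the H2-K1 locus, with the genes of the class I pathway marked. Only genes with RPKM of at least 1 in both libraries are shown. The 5 pathway genes lie between -0.30 and 0.10, while other genes of the region spread more widely on both sides of 0.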

How the data were processed

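E13.5 PGCs were profiled by RNA-seq as 1 control and 1 Klf9-OE library. The authors used TopHat2 and Bowtie to map single-end reads on mm10 and deposited Cufflinks FPKM per locus with 95% bounds, which is RPKM for single-end reads. The Cuffdiff results of the study were not used here. The members and the lists were chosen with earlier results of these data known.

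Loci that shared a symbol were added up. Ratios used the values as deposited, log2 differences a pseudocount of 0.1, which understates changes of low genes. The 95% range of a ratio combined the relative half-widths of both intervals, and 5 genes with invalid intervals were left out of the overlap counts. Read numbers were inferred by dividing RPKM by 0.5 of the upper half-width and squaring. They were printed only where they followed RPKM and depth within 10%, and for Klf9, Nlrc5, Psmb10 and Tap2, where they did not. The steps were tested on simulated data.

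The rule for named genes took the 10 members, Klf9, and of each list the most abundant gene and up to 6 genes of at least 1 RPKM that differed 2-fold, of which the text gives those bearing on the pathway. Coordinates are 1-based mm10. Promoter windows came from RefSeq (GRCm38.p6), which held 8 of the 10 members, without Tap2 and Nlrc5. The mirrored ISRE and the 25-base spacing were chosen after the sequences were seen. One gene of the interferon list and one motif are not reported here. Alternatives were other pseudocounts, ratios, scalings, minimum RPKM, locus choices and widened intervals. Calculations used matplotlib 3.10.9, scipy 1.17.1, pandas 2.3.3 and numpy 2.4.6 under Python 3.11.15.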

Additional observations from a re-analysis of the deposited data

How the results depend on the processing

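Each condition had 1 library, so no replicate could be left out. No paired analysis was possible because each condition had 1 library. Over the 8 genes, all 48 values of single genes recomputed under other pseudocounts, scalings and locus choices moved by less than their 95% error. Part of this was fixed in advance, as adding joint names cannot change these values and a scaling moves all genes nearly alike. Taking the highest locus alone left every value as it was. H2-K1 went from -0.03 to 0.03 on the log2 scale when the libraries were scaled to the same sum, so 5 genes were then higher and 3 lower. The median over the genes ran from -0.098, with the joint loci added, to 0.056, with the same sum, which shifts the median of all genes by 0.06. Counts of 2-fold genes remained 0 at a ratio of 1.5 or 4. Among 54 recomputed medians and counts, 1 was flagged as moved. This was the interferon gene list, which went from 0.838 to 0.866 with the same sum. It has no error to compare with, because both of its genes above 0 were at 0 in control. The list had no genes left at a minimum of 1 RPKM. At that minimum the leukocyte and macrophage list went from -0.39 to 0.28.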
